A study of Mus musculus with 2 samples.

Results

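The genes described are the mouse Rnf genes, named for the RING finger, a zinc-binding fold. They were taken by name alone, as every gene whose symbol is Rnf followed by a digit in a list of C-to-U editing sites from neuronal nuclei. The list names 43 such genes with 94 sites, out of 6929 genes with 17755 sites in all. RING proteins are the largest class of E3 ubiquitin ligases. An E1 enzyme activates ubiquitin, an E2 enzyme carries it, and the RING finger of the E3 ligase brings the loaded E2 to the protein to be marked. In neurons, ubiquitin ligases are known for roles in receptor turnover, axon growth, synapse remodelling and protein quality control at the endoplasmic reticulum.

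The study has 1 group, with no untreated or editor-free group used here. It comprises 2 libraries from cortex of APOBEC1-YTH mice, in which a cytidine deaminase joined to the m6A-binding YTH domain edits cytidines next to N6-methyladenosine (m6A) in RNA. The mice were 10 weeks old when tamoxifen began (20 mg/kg every 24 hours over 5 days), and tissue was collected 7 days after the last dose. Nuclei were ethanol-fixed (50%), stained for the neuronal nuclear protein NeuN and flow-sorted. The labels give neither a promoter for the transgene nor the number of animals behind each library. The authors combined both libraries into 1 value per site, the editing level, which is the percentage of reads of that cytidine that were converted. There is therefore no spread between libraries, the depth is unknown, and nothing below is tested between samples. A gene without a listed site may lack m6A, reads or expression, and these cannot be told apart.

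Markers of the sorted cells were only partly represented among the listed genes. Of 6 pan-neuronal markers, 3 had a site (Map2, Syt1 and Snap25), while Rbfox3, which encodes NeuN, Tubb3 and Nefl had 0. All 3 excitatory markers had one and 0 of 3 inhibitory markers did. Of the markers of other cells, all 5 for astrocytes (140 sites together), all 4 for oligodendrocytes, both for their precursors, 2 of 3 for microglia and all 3 for endothelium and pericytes had sites. The part of non-neuronal RNA in the Rnf values was not tested.

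One Rnf site lay where a reference sequence was at hand, so it is shown first, because it places an edited base in its RNA context. It is the 5′-most of the 3 sites of Rnf185, which encodes a ubiquitin ligase of the endoplasmic reticulum membrane. The stretch is chr11:3452197-3452297 of GRCm38.p6 (mm10), minus strand, read 5′ to 3′ from a RefSeq promoter window of the neighbouring antisense gene 8430429K09Rik, and the site itself is at position 3452247. The capitals mark GGACA, 1 form of the 5-base m6A consensus, and the C among them is the edited base.
Rnf185: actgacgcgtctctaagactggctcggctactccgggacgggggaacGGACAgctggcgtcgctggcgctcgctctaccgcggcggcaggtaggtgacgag
GGACA occurred 1 time on this strand of the 101 bases and 0 times on the other. It is not the only form of the consensus there: agact, another form, lies nearer the 5′ end of the stretch and holds no listed Rnf185 site. Among stretches of 101 bases cut from all RefSeq promoter windows, 19.4% held GGACA on either strand. The edited C directly follows an A, the base that carries m6A in the consensus. This context is not typical of listed sites in promoter windows: over the whole list the edited C followed an A in 16.5% of 254 sites there, against 19.7% of all C in the windows, and was the C of the consensus in 4% of 250 sites, against 6.65% of all C. This site was edited at 4.76%, below the 11.1% and 10.5% of the other Rnf185 sites, and it lay 709 nt from the 5′ end of the gene span, whereas those were 809 and 2000 nt from the 3′ end.

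More than 50% of the Rnf genes had a listed site. Of 83 protein-coding Rnf genes in the RefSeq gene table, 43 had at least 1 site (51.8%, exact 95% binomial interval 40.6% to 62.9%), against 28.3% of all 21900 protein-coding genes. No test of this difference was made. Rnf genes with a site had a median span of 31.2 kb and those without one 20.4 kb, against 34.2 kb and 12.5 kb for all protein-coding genes with and without a site. Among Rnf genes with spans of 5 to under 20 kb, 14 of 21 had a site (66.7%), against 23.7% of all protein-coding genes of that span. The shares were 11 of 22 (50.0%) against 35.0% at 20 to under 50 kb, 16 of 25 (64.0%) against 47.9% at 50 kb or more, and 2 of 15 (13.3%) against 8.54% under 5 kb. The share was thus higher for Rnf genes in each of the 4 span classes. Across the 43 listed Rnf genes the number of sites followed the span with a Spearman's rho of 0.37, a description over genes of the same libraries (0.27 over all listed protein-coding genes).

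**Figure D1:**
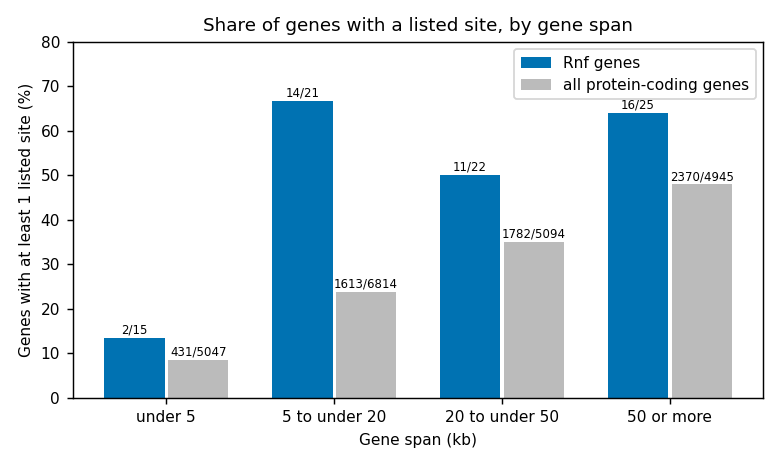
Percentage of genes with at least 1 listed site (y axis) by gene span in kb (x axis), for Rnf genes (blue) and all protein-coding genes (grey), with counts above the bars. In each span class the Rnf bar is the higher, from 13.3% against 8.54% under 5 kb to 66.7% against 23.7% at 5 to under 20 kb.

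The 40 protein-coding Rnf genes without a site include Rnf2, Rnf4, Rnf8, Rnf11, Rnf17, Rnf19b, Rnf20, Rnf26, Rnf32, Rnf39 and Rnf43. Rnf2 encodes the catalytic RING subunit of Polycomb repressive complexes, Rnf4 a ligase that reads SUMO chains, Rnf8 a ligase of the DNA break response and Rnf43 a ligase that removes Wnt receptors from the cell surface. Rnf17 is known from germ cells. Long genes are among those unlisted too, such as Rnf220 (226 kb) and Rnf150 (228 kb), which were named after their values were seen.

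Sites per gene were few. Of the 43 genes, 20 had 1 site (46.5%, against 49.2% of all listed genes), 9 had 2, 6 had 3, 5 had 4 and 3 had at least 5 (13.5% of all listed genes had at least 5). The mean was 2.19 sites per listed Rnf gene and 2.56 per listed gene overall. Rnf13 had 7 sites, Rnf213 6, Rnf121 5, and Rnf6, Rnf24, Rnf141, Rnf180 and Rnf214 had 4 each.

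Editing levels of Rnf sites ran from 1.28% in Rnf214 to 40% in Rnf6, with a median of 4.76% (exact 95% binomial interval of the median 3.77% to 5.71%) and quartiles of 2.91% and 7.92%. The median over all sites of the list was 3.64%. Among sites of at least 2% alone the medians were 5.07% for Rnf sites and 4.88% for all sites, so most of the gap went with the lowest listed levels. Per gene the gap was smaller, with a median gene mean of 5.50% for Rnf genes and 5% for all genes. At least 10% was reached by 18 of 94 Rnf sites (19.1%, exact 95% interval 11.8% to 28.6%), against 14.9% of all sites. At least 15% was reached by 8 Rnf sites (8.51%, against 5.94% of all sites). At least 20% was reached by 4 Rnf sites, 2 in Rnf213 and 1 each in Rnf6 and Rnf152 (4.26%, interval 1.17% to 10.5%, against 2.02%). The intervals cover the counting of sites only and treat sites of the same gene as independent, so they may be too narrow. Those for 10% and 20% include the value of all sites, which is a description and not a test.

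**Figure D2:**
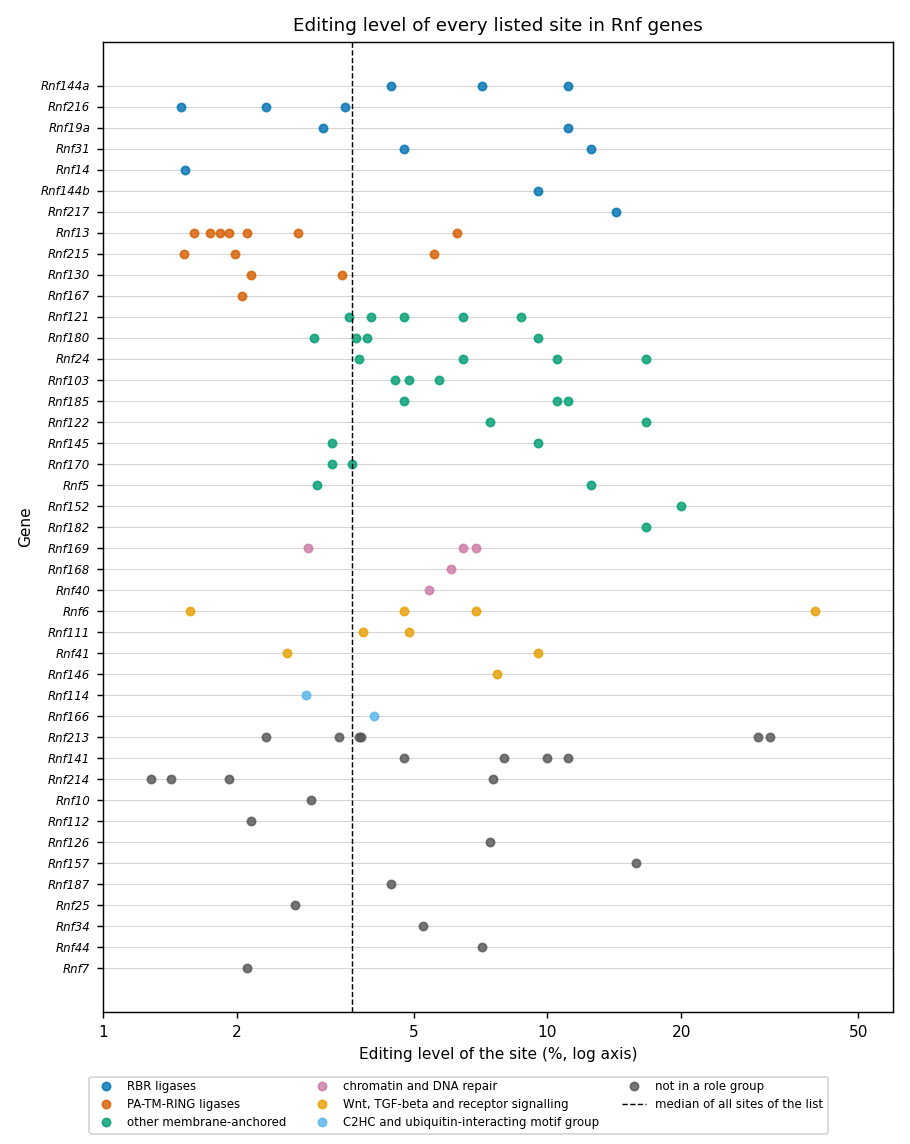
Editing level in percent (x axis, log scale) of each of the 94 sites, by gene (y axis), with genes grouped and coloured by the role of their product and the dashed line at 3.64%, the median of all listed sites. Of the sites 18 reach 10%, and the 40% site of Rnf6 and the 31.6% and 29.8% sites of Rnf213 stand to the right.

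Membrane-anchored ligases other than those with a protease-associated domain, many of them in the endoplasmic reticulum or Golgi, are the largest of the role groups. Of 15 such genes 11 had a site (28.3% of all protein-coding genes did), 29 sites together with a median of 5.71% and a range of 2.99% to 20.0%. Rnf121, a multi-pass membrane protein of the early secretory pathway, had 5 sites, at 6.45%, 3.57%, 4%, 4.76% and 8.70% along increasing coordinates on chromosome 7 (102019973 to 102020453, minus strand). All 5 lay in a stretch of 480 nt, 836 to 1316 nt from the 3′ end of its span of 53.3 kb. Rnf24, a Golgi membrane protein known to bind TRPC channels, had 4 sites on chromosome 2, at 6.45%, 3.77%, 10.5% and 16.7%. The highest 2 were 2902 and 4075 nt from the 3′ end. The site at 6.45% lay 161 nt past the end of the RefSeq span, and it and the site at 3.77% also lay within the span of Pank2, whose listed sites are on the other strand. Rnf122, which is related to Rnf24, had 2 sites, 7.41% at 170 nt from the 5′ end and 16.7% at 3973 nt from the 3′ end.

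Rnf180 was the gene of this group with several sites and none near the 3′ end. It encodes a membrane ligase known in mice for marking monoamine oxidase A. Its 4 sites on chromosome 13 were at 9.52%, 2.99%, 3.70% and 3.92%, and 0 of them lay in the last 5 kb. Of these, 3 were within 173 nt of each other, about 120 kb from the 3′ end (119527 to 119700 nt), and also within the span of the long noncoding RNA gene Gm52064, whose strand the gene table does not give. The remaining one was 545 nt from the 5′ end.

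Both ligases of the Rnf5 and Rnf185 pair, paralogs that act in degradation at the endoplasmic reticulum, had sites near the 3′ end. Rnf5 had 12.5% and 3.03% at 118 and 196 nt from it. Rnf103 had 3 sites at 4.55%, 5.71% and 4.88%, the last 2 of them 13 nt apart. Rnf145, a ligase of sterol sensing, had 9.52% and 3.28%, while its relative Rnf139 had 0 sites. Rnf170, known for degrading activated inositol trisphosphate receptors, had 3.28% and 3.64%, but reads may be shared with the pseudogene Rnf170-ps, so these values are uncertain. The single site of Rnf152, a lysosomal ligase of amino acid signalling, was at 20.0% (chromosome 1, 105284566, 7649 nt from the 3′ end). The single site of Rnf182, a ligase enriched in brain, was at 16.7% (chromosome 13, 43668433, 2513 nt from the 3′ end). In this group Rnf26, Rnf183 and Rnf186 also had 0 sites.

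The ligases with a protease-associated domain and a single transmembrane segment had low levels. Of 10 genes 4 had a site, beside 28.3% of all protein-coding genes. Their 13 sites had a median of 2.06% and a highest value of 6.25%. Rnf13, a ligase of endosomes and lysosomes and the Rnf gene with the most sites, had 1.92%, 1.74%, 2.74%, 1.83%, 6.25%, 2.11% and 1.60% along chromosome 3 (57807124 to 57834216, plus strand). Of these 7 values, 6 were below the 3.64% median of all sites. The first 2 lay 28.3 and 14.9 kb from the 3′ end and the other 5 between 1209 and 1862 nt from it. Rnf167, known for ubiquitination of AMPA receptors, had 1 site at 2.06%, Rnf130 had 2.15% and 3.45%, and Rnf215 had 5.56%, 1.98% and 1.52%. Rnf43, Rnf128, Rnf133, Rnf148, Rnf149 and Rnf150 had 0.

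The RING-between-RING ligases, which pass ubiquitin through a cysteine of their own, were listed in 7 of 8 cases, beside 28.3% of all protein-coding genes. Of all protein-coding genes with spans of 50 kb or more, 47.9% had a site. Rnf144a, Rnf144b, Rnf216 and Rnf217 have such spans, and the other genes of this group are shorter. Their 13 sites had a median of 4.76% and ran from 1.5% to 14.3%. Rnf31, the catalytic subunit of the complex that makes linear ubiquitin chains, had 12.5% at 108 nt from the 5′ end and 4.76% farther on. Rnf217 had 14.3% at 990 nt from the 5′ end. Rnf144a had 11.1%, 4.44% and 7.14% and its paralog Rnf144b 9.52%. Rnf19a had 11.1% and 3.12% and its paralog Rnf19b had 0 sites. Rnf216, known in neurons for degrading the activity-regulated protein Arc, had 3 sites at 3.51%, 1.5% and 2.33%, all more than 86 kb from the 3′ end of its span of 122 kb. Rnf14 had 1 site at 1.53%.

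Among ligases of chromatin and DNA repair, 3 of 7 genes had a site, beside 28.3% of all protein-coding genes. Rnf169 had 6.45%, 6.90% and 2.90%, and Rnf168, its paralog and a histone ligase at DNA breaks, had 6.06%. Rnf40 had 5.41% at 375 nt from the 3′ end, while Rnf20, with which it forms the ligase of histone monoubiquitination, had 0. Rnf2, Rnf4 and Rnf8 had 0 as well.

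Ligases of Wnt, TGF-beta and receptor signalling had sites in 4 of 7 cases, beside 28.3% of all protein-coding genes. Rnf6, known for controlling LIM kinase in growth cones, had 40%, 6.90%, 1.57% and 4.76% at 251, 1122, 1634 and 2423 nt from the 3′ end (chromosome 5, 146209444 to 146211616, minus strand). The 40% site is the highest of the Rnf genes and 25.5 times the lowest in the same gene. Of the 17755 listed sites, 29 were at or above it, itself included. The number of reads behind it is unknown and may be small, so its rank need not mean strong editing. Rnf41, known for ErbB receptor degradation, had 2.60% and 9.52%. Rnf111, an activator of TGF-beta signalling, had 4.88% and 3.85%, and its relative Rnf165 had 0 sites. Rnf146, which recognises poly(ADP-ribose) on axin, had 7.69%. Rnf11 and Rnf220 had 0.

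In the small group with a C2HC zinc finger, Rnf114 (2.86%) and Rnf166 (4.08%) had 1 site each, and Rnf125 and Rnf138 had 0. Outside these role groups, 12 of 32 genes had a site. Of all protein-coding genes 28.3% had one. Rnf213, a very large ATPase with a RING finger, had 3.39%, 3.77%, 31.6%, 29.8%, 2.33% and 3.81% along chromosome 11 (119410171 to 119463642, plus strand). The 2 high sites were 30 nt apart, at 119424176 and 119424206, about 63 kb from the 3′ end, and the other 4 did not pass 3.81%. The last of the 6 also lay within the span of the long noncoding RNA gene A930037H05Rik. The 31.6% at 119424176 is the 1 Rnf value deposited with more than 4 decimals, which 125 values of the whole list have. How both libraries were merged is not stated, so such a value may be a mean of 2 values and not a single share of reads.

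Rnf141 and Rnf214 each had 4 sites and 0 of them in the last 5 kb. Rnf141 had 10.0%, 4.76%, 11.1% and 8% between 14.3 and 16.7 kb from the 3′ end of its 45.0 kb span. Rnf214 had 7.53%, 1.42%, 1.92% and 1.28%, 11.0 to 34.1 kb from the 3′ end. The single site of Rnf157, a ligase enriched in brain, was at 15.8%, 834 nt from the 3′ end (chromosome 11, 116337179). Single sites were also listed in Rnf126 (7.41%), a ligase of cytosolic quality control, and in Rnf44 (7.14%), 260 nt from the 5′ end. Rnf34 had 5.26%, Rnf187 4.44%, Rnf10 2.94% and Rnf25 2.7%. Rnf112, a brain GTPase with a RING finger, had 2.15%, and Rnf7, a RING subunit of cullin ligases, had 2.11%. Rnf115, a relative of Rnf126, had 0 sites.

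The share of Rnf sites near the 3′ end of the span was close to that of all sites. Of the 93 Rnf sites inside their gene's span, 51 were in the last 5 kb (54.8%, exact 95% interval 44.2% to 65.2%), against 49.7% of all sites inside spans. The median distance was 4075 nt for Rnf sites and 5096 nt for all sites. In 21 Rnf genes every site inside the span was in the last 5 kb, in 12 genes none was, and 10 genes had both kinds. Over the whole list these counts were 2453, 2305 and 1619 genes. The 2 listed Rnf genes with spans under 5 kb, Rnf5 and Rnf167, could only fall in the first class. In the first 1 kb lay 9 Rnf sites (9.68%, interval 4.52% to 17.6%), against 8.00% of all sites, in Rnf31, Rnf122, Rnf44, Rnf130, Rnf180, Rnf185, Rnf111, Rnf103 and Rnf217. The median level was 5.26% in the last 5 kb (51 sites) and 3.83% elsewhere (42 sites), and over the whole list it was 4.35% and 2.97%. In the 10 genes with both kinds of site, the mean was higher in the last 5 kb in 8 and lower in 2 (1148 and 462 of 1619 genes over the whole list). Coverage along the genes is unknown, and its part in these differences was not tested.

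**Figure D3:**
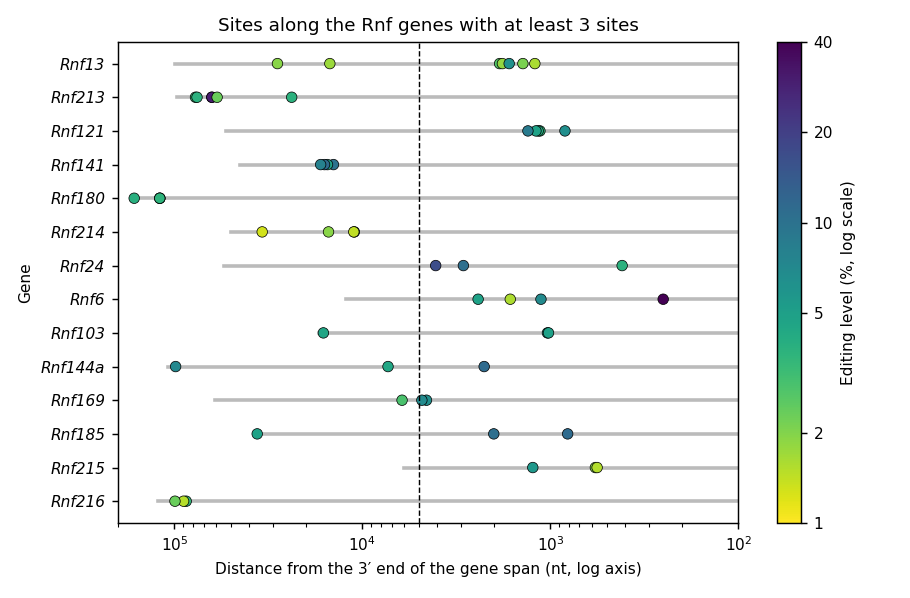
Distance in nt from the 3′ end of the gene span (x axis, log scale, 3′ end to the right) of the sites of the 14 Rnf genes with at least 3 sites (rows), coloured by editing level, with grey lines for the spans and a dashed line at 5 kb. Sites of Rnf121, Rnf6 and Rnf215 lie right of the line and those of Rnf213, Rnf141, Rnf180, Rnf214 and Rnf216 left of it, and the Rnf24 site past the span is not drawn.

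Sites close together had similar levels in most cases. Of the 94 Rnf sites, 19 in 9 genes (20.2%, interval 12.6% to 29.8%) had another site of the gene within 100 nt, against 22.8% of all sites. Sites with a close neighbour come at least 2 at a time, so this interval, which treats sites as independent, is too narrow. Within 20 nt the count was 6 (6.38%, against 8.72%), from 1 pair each in Rnf215 (12 nt apart, 1.98% and 1.52%), Rnf103 (13 nt) and Rnf180 (17 nt, 2.99% and 3.70%). Among the 10 pairs of neighbouring Rnf sites within 100 nt, levels differed by under 1.5-fold in 8 (80%, against 62.4% of such pairs in the whole list), with a median ratio of 1.21. The exceptions were Rnf214, with 7.53% and 1.42% at 75 nt, and Rnf5, with 12.5% and 3.03% at 78 nt. The 41 pairs more than 100 nt apart had a median ratio of 2.10, and 10 of them (24.4%) were within 1.5-fold, against 40.8% over the list. Neighbouring sites can share reads, so they are not independent measurements.

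**Figure D4:**
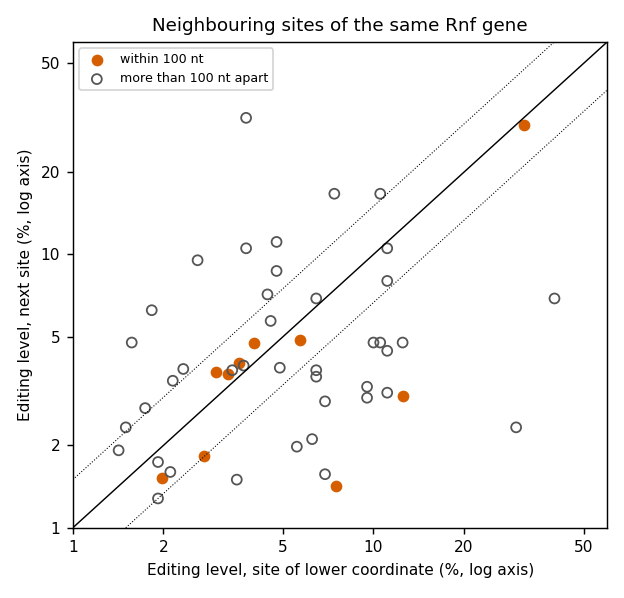
Editing levels in percent of neighbouring sites of the same Rnf gene, the site of lower coordinate on the x axis and the next on the y axis (both log), for 10 pairs within 100 nt (orange) and 41 pairs farther apart (open), with the line of equal levels and dotted lines at 1.5-fold. Of the orange points 8 lie between the dotted lines, and the Rnf214 and Rnf5 pairs lie below them.

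In the other gene lists of the ubiquitin pathway, 50.0% to 73.1% of members had a site, beside 28.3% of all protein-coding genes. Among RING genes with other names, 28 of 49 had a site (57.1%, exact 95% interval 42.2% to 71.2%), among them Xiap, an inhibitor of apoptosis (5 sites, mean level 4.58%). Of 26 HECT ligase genes, whose products take over the ubiquitin before passing it on, 19 had a site (73.1%, 52.2% to 88.4%), among them Herc2 (12 sites). Of 36 E2 genes 18 had a site (50.0%, 32.9% to 67.1%), led by Birc6 (13 sites) and Ube2o (8), both large hybrid enzymes. Of 9 E1 genes 5 did, among them Nae1 (2 sites), and of 4 ubiquitin genes 2 did, among them Ubb (3 sites, mean level 3.07%). Median site levels were 3.90% for the other RING genes, 2.7% for HECT and 3.39% for E2 genes, against 4.76% for Rnf sites. The medians of the E1 genes (7.14%, 9 sites) and the ubiquitin genes (1.43%, 12 sites) rest on few sites.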

How the data were processed

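RNA from sorted nuclei was sequenced in 2 libraries, made with a stranded total RNA kit per the labels' protocols, although another label gives polyA RNA. Which RNA fraction was read is thus unsettled, and it bears on the shares near 3′ ends. Sites of C-to-U conversion were called with Bullseye per the series' design text, and reads were aligned with STAR 2.7.5 to mm10 per the submitters' processing notes. The sources used here do not state Bullseye's settings, its control or how both libraries were merged. The authors deposited 1 editing fraction per site for both libraries together, multiplied here by 100, with 0 columns of coverage or of single libraries. Depth is therefore unknown, and no replicate error can be given.

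All 43 member symbols were found in the RefSeq table for GRCm38.p6. Distances run to the ends of the RefSeq span on the strand of the site, since no exon annotation was used. Positions are 1-based: all 255 sites inside RefSeq promoter windows (250 bases before to 50 after a gene's start) read C on their strand. Shares have exact Clopper-Pearson 95% intervals, and those over sites treat sites of the same gene as independent. The members, role groups and pathway and marker lists were chosen with earlier results of these data known, so no set test was made. Site-by-site values are given for members with at least 4 sites or a site of at least 15%, and unlisted relatives of members were named after their values were seen. Of each pathway list the 2 members with the most sites were to be named, ties going to the higher mean, and of the Rnf genes without a site the first 12 by number; some of these are not reported here. Distance and interval functions were tested on simulated data. Python 3.11.15, pandas 2.3.3 and SciPy 1.17.1 were used.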

Additional observations from a re-analysis of the deposited data

How the results depend on the processing

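Of 21 recomputed values, 12 stayed within the main value's interval (or, for counts, within 1.5 times) and 9 moved further. Raising the lowest level that counts left 41 Rnf sites in 30 genes at 5% and 4 sites in 3 genes at 20%. The share of Rnf genes with a site was then 36.1% and 3.61%, against 17.7% and 1.28% of all protein-coding genes, and 27.7% against 15.3% when at least 2 sites were asked. The highest site of each gene had a median of 7.41%, against 6.45% over all genes. The share near the 3′ end was 37.6% for the last 2 kb, 62.4% for the last 10 kb and 55.6% for sites of at least 2% in the last 5 kb, against 29.9%, 61.1% and 53.4% of all sites. The share of Rnf sites with a neighbour was 6.38% within 20 nt and 11.7% within 50 nt, against 8.72% and 16.3% of all sites. The counts and shares that moved could only fall under the narrower definitions. The median of the highest sites is a different measure from the median over all sites. Leaving out Rnf13, the gene with the most sites, left the median level at 4.76%. No paired analysis was possible because the list holds 1 combined value per site and no values of single libraries, and for the same reason no library could be left out. Shares in the 3′ UTR and of sites beside the m6A consensus were planned and not run, since no exon annotation or genome sequence was used. The unknown coverage limits every level: low levels can be listed only where many reads lie. High levels, such as those of 15% or more named above, may rest on few reads, which was not tested.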

Other observations

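Some genes, not all of them for ubiquitin ligases, carry an Rnf number only as an older name and so fell outside the rule. Of 36 such protein-coding genes, 12 had a site (33.3%, against 28.3% of all protein-coding genes). Several of the 36, such as Birc2, Rc3h2 and Rlim, were also counted above among the RING genes with other names. Their 38 sites had a median level of 2.65%, against 3.64% over all sites of the list. Most of the sites were in Msl2, a RING subunit of the male-specific lethal complex (12 sites, 1.06% to 12.5%), and Trim8 (9 sites, 1.08% to 13.3%), and Rlim, formerly Rnf12 and a close relative of Rnf6, had 3.03% and 6.67%.

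Over the whole list, in 10 of the 250 sites in promoter windows with enough flanking bases the edited C was the C of the m6A consensus (any base but C, then A or G, then A, then C, then any base but G). The Rnf185 site is 1 of the 10, and the 1 site of the 250 in GGACA. The base before the edited C was G in 130 of 254 sites (51.2%), against 29.9% of all C in the windows.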
